A study of Mus musculus with 24 samples.

Results

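The transcripts described here are 32 genes that mark T cells, natural killer (NK) cells and B cells, measured in mouse lung macrophages and monocytes. They were chosen by symbol, as 15 T cell, 9 NK cell and 8 B cell genes, and are 32 of the 37979 rows of the deposited expression table. The table covers 24 RNA sequencing libraries in 8 groups of 3, each group drawn from 3 independent experiments. Each library was a pool of 3 to 5 male C57BL/6 mice aged 10 to 16 weeks. Tumor-bearing mice had received Lewis lung carcinoma cells carrying luciferase (LLC-Luc) in Matrigel in the left lung lobe, and their left lobe was taken 2 or 3 weeks later. Naive mice had no injection and all their lobes were taken, so every comparison of tumor with naive lung also compares the left lobe with all lobes.

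The sort used antibodies to CD11b, SiglecF, Ly6G, CD64 and CD11c, with doublets and dead cells gated out, and named no T, NK or B cell antibody. MacA cells were SiglecF+ and CD11c+, and were collected from naive lungs (MacA-N) and at 2 weeks of tumor (MacA-2wk). The other gates were CD11b+ and Ly6G-. MacB1 cells were CD64 low and CD11c+ and came from naive lungs (MacB1-N). MacB2 cells were CD64 intermediate and CD11c-, from naive lungs (MacB2-N) and at 2 and 3 weeks (MacB2-2wk, MacB2-3wk). MacB3 cells were CD64 high and CD11c+, at 2 and 3 weeks (MacB3-2wk, MacB3-3wk). All MacA libraries were run on lane 1, whereas MacB replicates 1, 2 and 3 were run on lanes 2, 3 and 7, so MacA gate and lane cannot be told apart.

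T cells recognise antigen through a receptor whose signal passes through the CD3 chains and the kinase Lck. NK cells kill target cells with perforin and granzymes, under the control of activating and inhibitory surface receptors. B cells signal from their antigen receptor through the chains CD79A and CD79B. Some of these genes are known also outside lymphocytes: Cd2 and Cd22 encode surface receptors that myeloid cells can carry, and Il7r encodes a cytokine receptor chain found on some fetal and activated monocytes and macrophages.

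Values are FPKM (fragments scaled by transcript length and by library), so levels of different genes can be set side by side. The library sums were 1880236 to 4868372 FPKM, 15599 to 18522 genes were above 0, and the absolute depth of the libraries is unknown. Within-group correlations of log2(FPKM + 1) were 0.843 to 0.933, across genes. The labelled sort was met by its own genes: the mean of Siglecf was 231 FPKM for MacA-N and 146 for MacA-2wk against at most 5.25 in the MacB groups. Some libraries stood apart in genes of other lung cells. The summed level of 12 endothelial genes was 587 FPKM in MacB2-N replicate 3 against 177 and 195 in the other replicates, and 321 in MacA-2wk replicate 3 against 67.1 and 76.9. In MacB2-2wk it was 689 in replicate 2 against 226 and 276. MacB2-2wk replicate 3 had the lowest estimated depth, at 0.520 of the deepest library.

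Most of the 32 members had their highest mean in MacB1-N. The highest group mean was under 1 FPKM for 6 members, from 1 to under 5 for 14, from 5 to under 10 for 7 and at 10 or more for 5 (Cd2, Cd22, Il7r, Klrd1 and Gzma). Of the 32 members, 21 had their highest mean in MacB1-N, 5 in MacB2-2wk, 2 in MacA-N, 2 in MacB3-2wk and 1 each in MacB2-N and MacB2-3wk. Only 3 members averaged 1 FPKM or more in all 8 groups. In these bulk samples fewer cells of a type and less RNA per cell cannot be told apart.

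**Figure D1:**
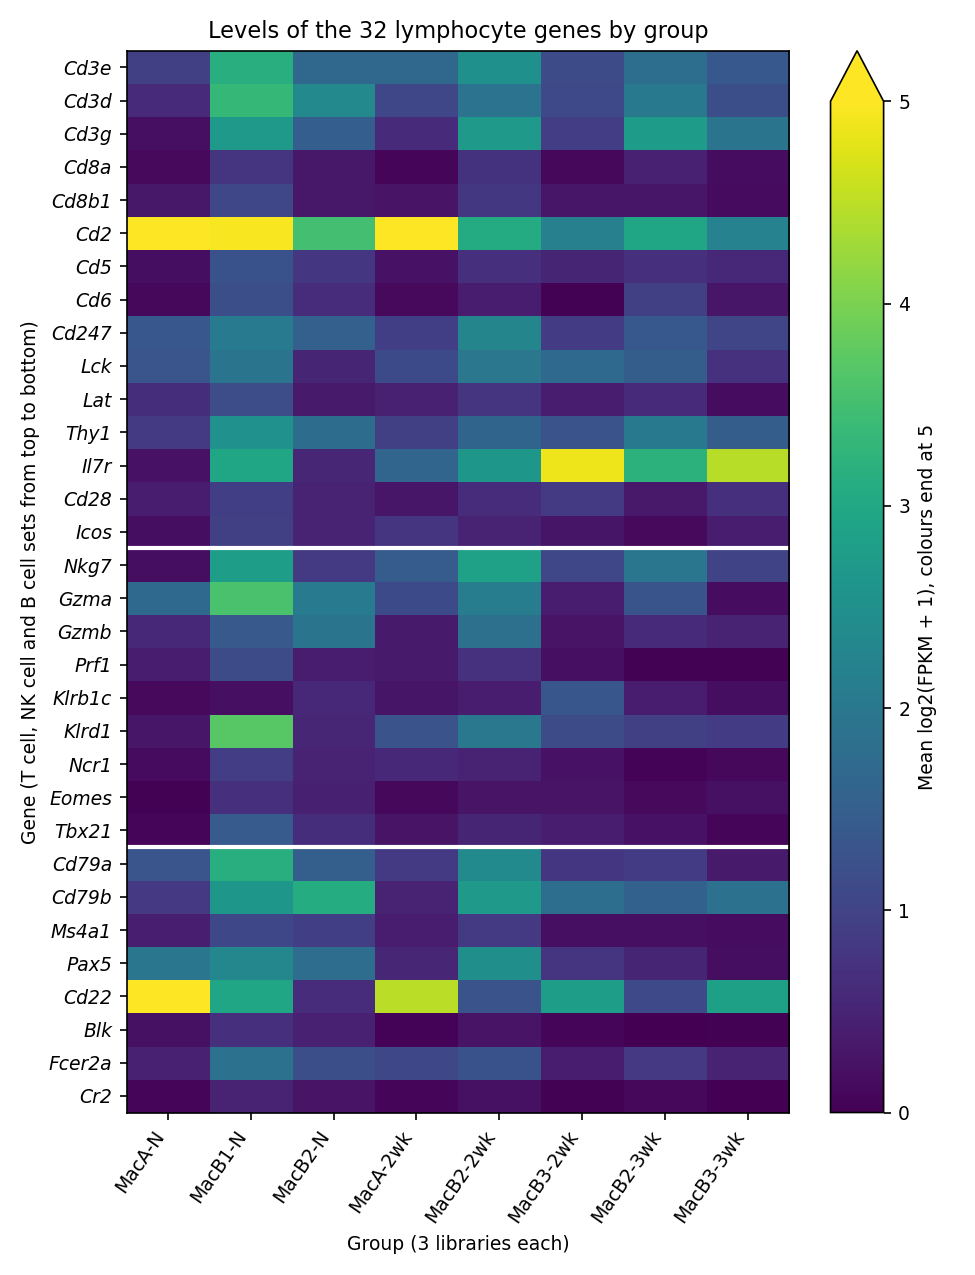
Mean log2(FPKM + 1) of the 32 genes (rows) in the 8 groups (columns, n = 3 libraries each), with white lines between the T, NK and B cell genes and colors ending at 5. The MacB1-N column is the brightest for 21 of 32 genes, while Cd2 and Cd22 are brightest in MacA-N and Il7r in MacB3-2wk.

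Mean summed levels gave the same order of gates for the 3 gene sets in naive lung. Cd2 and Il7r were set aside from the T cell sum and Cd22 from the B cell sum after their values had been seen, so the sums are descriptions without a test. The 13 remaining T cell genes summed to 37.8, 34.9 and 54.8 FPKM in MacB1-N, to 9.86, 15.6 and 29.7 in MacB2-N and to 10.3, 5.09 and 8.09 in MacA-N. The 9 NK cell genes summed to 28.1, 30.0 and 54.5 FPKM in MacB1-N, to 10.4, 8.29 and 18.8 in MacB2-N and to 4.60, 2.81 and 4.16 in MacA-N. Klrd1 and Gzma had the largest MacB1-N means of this set, 13.1 and 11.8 FPKM. For MacB1-N against MacB2-N, 7 of the 9 differences were positive and 2 (Gzmb and Klrb1c) negative. The 7 remaining B cell genes summed to 26.2, 21.3 and 19.6 FPKM in MacB1-N, to 12.3, 17.8 and 16.5 in MacB2-N and to 3.43, 12.7 and 6.65 in MacA-N. Pax5 alone contributed 9.71 FPKM to the B cell sum in MacA-N replicate 2. In each of the 3 sums every MacB1-N library was above every other naive library. MacB1-N replicate 3 was the highest library for T and NK cell genes but the lowest of its group for B cell genes. In MacB2-N, replicate 3 was the highest for T and NK cell genes and was also the library with the high endothelial sum.

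At 2 weeks of tumor the T and B cell sums of every MacB2 library were above those of every MacB3 library. The T cell sum was 29.4, 28.3 and 24.7 FPKM in MacB2-2wk and 18.5, 11.3 and 6.64 in MacB3-2wk. The NK cell sum was 28.7, 22.1 and 9.05 FPKM in MacB2-2wk and 9.27, 3.73 and 4.31 in MacB3-2wk, so that MacB2-2wk replicate 3 fell inside the MacB3 range. The B cell sum was 12.8, 19.6 and 30.4 FPKM in MacB2-2wk and 4.75, 3.23 and 6.14 in MacB3-2wk. Pax5 alone contributed 20.1 FPKM to the B cell sum in MacB2-2wk replicate 3, the library of lowest estimated depth. At 3 weeks the 3 sums were read beside week 2, and a difference between gene sets was not tested. The T cell sum of MacB2-3wk was 31.0, 22.8 and 17.1 FPKM, overlapping week 2, whereas its NK cell sum of 7.86, 4.62 and 7.45 and its B cell sum of 3.77, 5.10 and 4.47 lay below every MacB2-2wk library. Cd3g alone contributed 15.4 FPKM to the T cell sum in MacB2-3wk replicate 1. In MacA-2wk replicate 3 the NK cell sum was 13.1 FPKM beside 4.03 and 4.04, in the library with the high endothelial sum, whose 12 fibroblast genes summed to 376 FPKM beside 43.6 and 46.9. MacB3-3wk sums were 10.7 to 12.1 FPKM for T cell, 1.70 to 4.69 for NK cell and 3.48 to 4.10 for B cell genes.

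**Figure D2:**
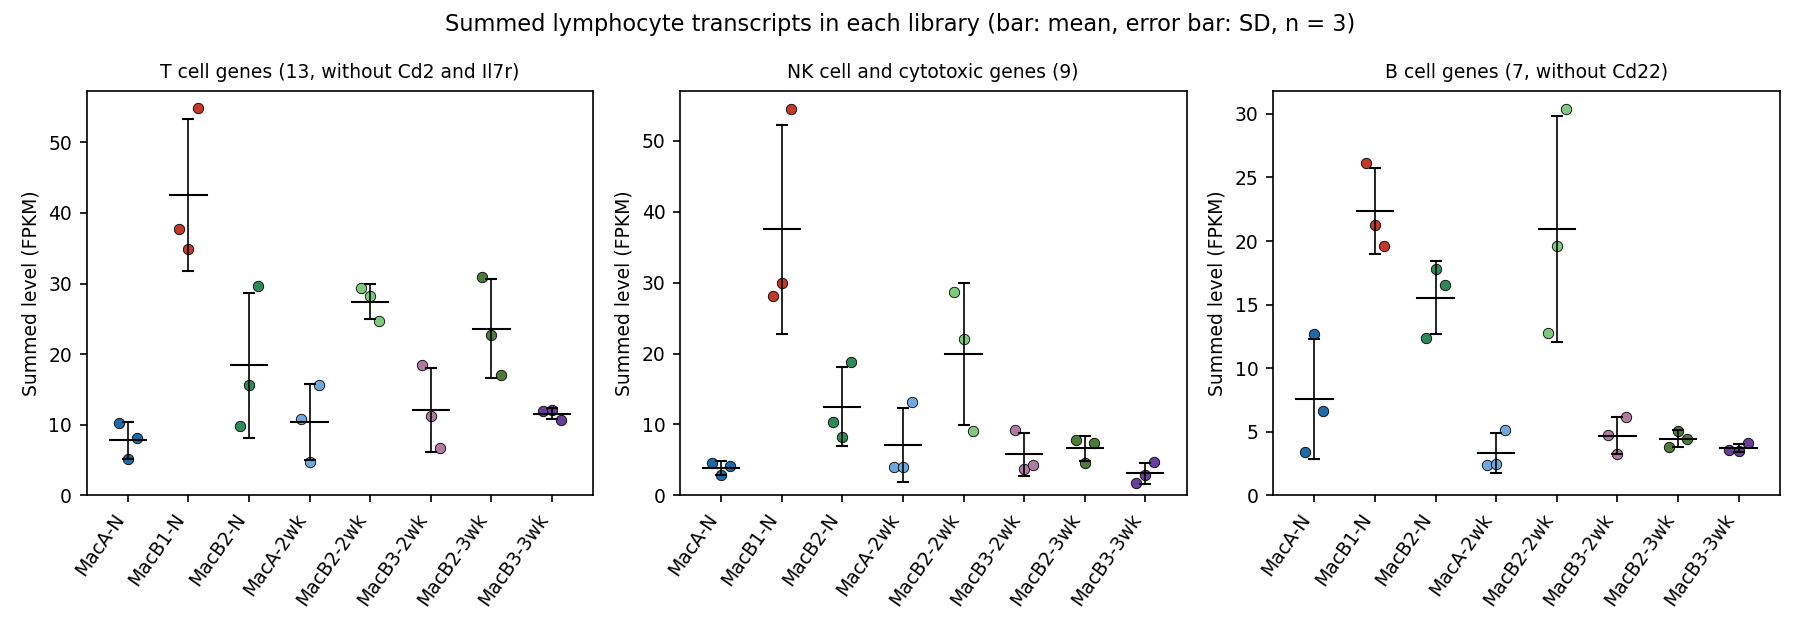
Summed FPKM of 13 T cell genes (without Cd2 and Il7r), 9 NK cell genes and 7 B cell genes (without Cd22) in each of the 24 libraries; points are libraries, horizontal bars group means and error bars the SD (n = 3). MacB1-N libraries lie between 34.9 and 54.8 for T cell genes, above all other libraries in that panel, and MacB2-3wk lies near MacB2-2wk for T cell genes only.

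Differences were tested with limma on log2(FPKM + 1), in a fit of all 24 libraries over the 17156 genes whose mean reached 1 FPKM in some group. A call needed a Benjamini-Hochberg adjusted p under 0.05 together with a fold of 2 or more. Fold changes below refer to log2(FPKM + 1), a scale that compresses changes of low genes, and are given with their standard error. Of the 32 members 26 were tested. Icos, Cd8a, Ncr1, Eomes, Blk and Cr2 were not. Another 7 (Cd8b1, Cd5, Cd6, Lat, Cd28, Prf1 and Tbx21) passed only through their MacB1-N mean and Klrb1c only through MacB3-2wk, so these had to be higher there than elsewhere and counts over tested members are descriptions. Several comparisons share a group, such as MacB1-N, MacB2-N or MacB2-2wk, and their results are given side by side only.

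In naive lung, 14 of the 26 tested members were called higher in MacB1-N than in MacA-N and 2 lower, beside 15% and 8.71% of all tested genes. They were 7 T cell genes (Cd3e, Cd3d, Cd3g, Cd5, Cd6, Thy1 and Il7r), 4 NK cell genes (Nkg7, Gzma, Klrd1 and Tbx21) and 3 B cell genes (Cd79a, Cd79b and Fcer2a), and the 2 lower were Cd2 and Cd22. Cd5, Cd6 and Tbx21 had passed the filter only through MacB1-N. Without MacA-N replicate 2 the higher calls were 9, with Cd3g, Cd5, Cd6, Thy1 and Gzma no longer among them. The groups did not overlap for 18 members that were higher in MacB1-N, beside 27.3% of all tested genes. Over all 32 members without a filter, 30 differences were positive with a median of 0.76, beside a median of 0.12 and 54.8% positive over the genes tested. Against MacB2-N, 6 members were called higher in MacB1-N (Cd2, Il7r, Nkg7, Klrd1, Cd79a and Cd22) and 0 lower, beside 3.5% and 1.7% of tested genes, and 15 had an unadjusted p under 0.05 in limma, beside 21.2% of tested genes. The groups did not overlap for 12 members, beside 14% of tested genes. Without MacB2-N replicate 3 the higher calls were 9, with Cd3e, Gzma, Prf1 and Tbx21 added and Nkg7 lost. Without MacB1-N replicate 3 or MacB2-N replicate 1 they were 4. The median over the 32 was 0.72, with 29 positive, beside a median of 0.09 and 56.4% positive over the genes tested. Between MacB2-N and MacA-N, 3 members were called higher (Cd3d, Gzmb and Cd79b) and 2 lower (Cd2 and Cd22), beside 10.7% and 10.2% of tested genes.

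**Figure D3:**
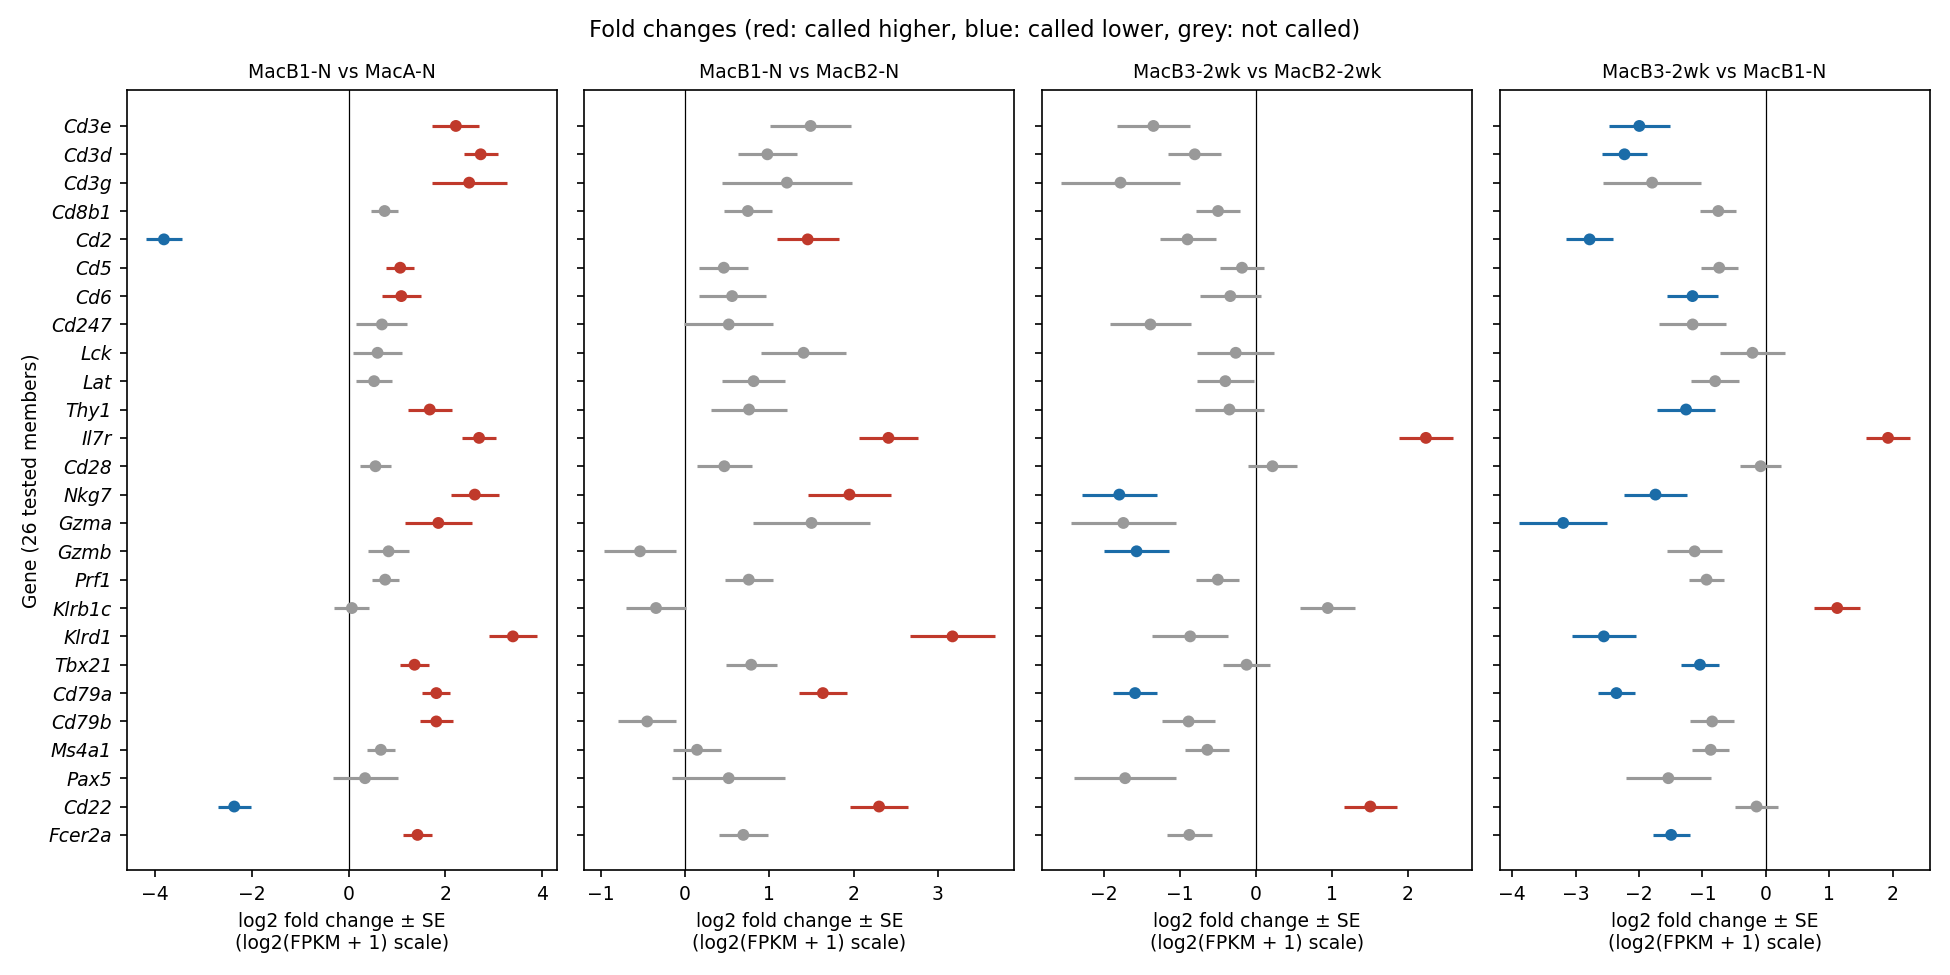
Log2 fold change of FPKM + 1 with its standard error for the 26 tested genes in 4 comparisons (MacB1-N against MacA-N, MacB1-N against MacB2-N, MacB3-2wk against MacB2-2wk and MacB3-2wk against MacB1-N; 3 libraries a group); red marks genes called higher, blue called lower and grey not called. The naive MacB1-N panels hold 14 and 6 red genes, and the panel of MacB3-2wk against MacB1-N holds 11 blue ones.

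The CD3 chains Cd3d, Cd3e and Cd3g, which carry the signal of the T cell receptor, were called higher in MacB1-N than in MacA-N. Cd3d (chromosome 9, 44981786 to 44987339, GRCm38) and Cd3g (chromosome 9, 44969572 to 44980431) are neighbours on opposite strands, transcribed away from each other, with RefSeq starts 1355 bases apart. Cd3e lies beside them (chromosome 9, 44998740 to 45009627) and shares exonic sequence with the opposite-strand gene Gm48719. Whether counting used strand is unknown here. The 250 bases before the starts of Cd3d and Cd3g are printed because these neighbouring receptor chains were both called higher in MacB1-N than in MacA-N. Both are on GRCm38.p6 from RefSeq, 5′ to 3′ on the strand of the gene, at chr9:44981536-44981785 (plus strand) and chr9:44980432-44980681 (minus strand). Capitals mark CAGGTG (an E-box) and GAGGAA (a purine-rich ETS core) on either strand, so that CACCTG and TTCCTC are matches too.
Cd3d: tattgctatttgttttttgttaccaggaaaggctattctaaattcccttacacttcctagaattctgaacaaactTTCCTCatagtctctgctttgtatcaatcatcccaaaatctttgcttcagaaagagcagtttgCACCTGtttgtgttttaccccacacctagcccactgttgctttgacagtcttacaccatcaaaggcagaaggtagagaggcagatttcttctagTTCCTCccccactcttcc
Cd3g: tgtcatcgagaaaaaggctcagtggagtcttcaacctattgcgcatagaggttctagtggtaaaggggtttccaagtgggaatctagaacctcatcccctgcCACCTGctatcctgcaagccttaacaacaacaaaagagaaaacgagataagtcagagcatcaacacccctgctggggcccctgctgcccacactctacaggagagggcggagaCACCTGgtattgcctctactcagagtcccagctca
The Cd3d window held 1 E-box and 2 ETS matches and the Cd3g window 2 E-boxes. Among the 9 T cell members with a RefSeq promoter, CAGGTG was found in 5 and GAGGAA in 6, beside 17.2% and 23.3% of all 32817 promoters of that length. A member counted when any of its windows held the motif, whereas the share of all promoters is over single windows. A match describes letters in the window and is neither a bound site nor a cause.

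Cd3d encodes the delta chain of the CD3 complex. It read 10.2, 7.78 and 9.33 FPKM in MacB1-N, 4.44, 4.77 and 3.26 in MacB2-N and 0.358, 0.683 and 0.511 in MacA-N. The 3 naive gates did not overlap, in the order MacB1-N, MacB2-N, MacA-N. Against MacA-N the log2 fold change was 2.74 ± 0.35 (SE) for MacB1-N (limma, adjusted p = 5.56e-06) and 1.76 ± 0.35 for MacB2-N (adjusted p = 0.000682). Under tumor Cd3d read 3.29, 4.56 and 1.2 FPKM in MacB2-2wk, 3.52, 3.00 and 2.75 in MacB2-3wk, 1.51, 1.76 and 0.429 in MacB3-2wk and 2.03, 0.747 and 1.32 in MacB3-3wk. These MacB3-2wk values lay below all MacB1-N values, with a log2 difference of -2.23 ± 0.35 (limma, adjusted p = 9.59e-05).

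Cd3e, the epsilon chain, read 5.72, 6.26 and 13.7 FPKM in MacB1-N, 0.695, 3.02 and 3.75 in MacB2-N and 2.03, 0.413 and 0.650 in MacA-N. MacB1-N was again above the other naive libraries, with replicate 3 the highest of all 24. The difference from MacA-N was 2.22 ± 0.48 on the log2 scale (limma, adjusted p = 0.00157). In MacB2-2wk it read 4.42, 8.40 and 2.66 FPKM, and in MacB3-2wk 2.42, 0.290 and 1.56, the latter lower than MacB1-N (-2.0 ± 0.48, limma adjusted p = 0.00419). Cd3g, the gamma chain, was uneven between replicates, at 6.68, 4.46 and 5.68 FPKM in MacB1-N, 0, 1.59 and 7.75 in MacB2-N and 0, 0 and 0.555 in MacA-N. MacB2-N replicate 3 alone reached above the MacB1-N range. Its call against MacA-N (2.50 ± 0.78, limma adjusted p = 0.0185) did not hold without MacA-N replicates 1 or 2 or MacB1-N replicate 1 (adjusted p = 0.0542, 0.0548 and 0.0533). The highest Cd3g value of the series was 15.4 FPKM, in MacB2-3wk replicate 1, beside 2.51 and 4.31 in the other libraries of that group. An exact 0 in an FPKM table can be a failed estimate, so a 0 is given as listed.

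Of the signaling partners of CD3, Cd247 (the zeta chain) was 2.92, 3.07 and 3.47 FPKM in MacB1-N, 1.52, 2.11 and 2.11 in MacB2-N and 0.683, 2.28 and 2.08 in MacA-N. The MacB1-N libraries lay above the other naive ones, and no comparison called the gene. Cd247 shares exonic sequence with the same-strand gene Gm16565 and the opposite-strand gene Pou2f1. Lck, the kinase that phosphorylates the CD3 chains, was 2.49, 2.87 and 3.02 FPKM in MacB1-N, 0.855, 0 and 0.573 in MacB2-N and 3.18, 0.200 and 2.10 in MacA-N, with no call. Lat, the adaptor downstream, reached 3.17 FPKM in MacB1-N replicate 3 and at most 1.13 in any library outside that group. Cd28, a costimulatory receptor, had its 2 highest values in MacB1-N replicate 3 (2.10 FPKM) and MacB3-2wk replicate 1 (1.95 FPKM). Icos, the related inducible receptor, averaged at most 0.972 FPKM in any group and was not tested.

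The coreceptor CD8 was scarcely detected. Cd8a was 0.434, 0.686 and 1.05 FPKM in MacB1-N and 1.01, 0.428 and 0.597 in MacB2-2wk, and at most 0.608 in the other groups. Cd8b1 had its highest values in the same groups, 2.10 FPKM in MacB1-N replicate 3 and 1.09 in MacB2-2wk replicate 1, and was not called. Thy1, a surface glycoprotein of T cells that fibroblasts also carry, was 5.51, 3.65 and 5.38 FPKM in MacB1-N, 0.782, 2.11 and 6.19 in MacB2-N and 1.24, 0.0831 and 1.42 in MacA-N. MacB2-N replicate 3 exceeded the MacB1-N range for Thy1. The call against MacA-N (1.68 ± 0.46, limma adjusted p = 0.00806) did not hold once MacA-N replicate 2 was left out (adjusted p = 0.0535).

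Cd5 and Cd6 encode related scavenger receptors that tune T cell receptor signals, and both passed the filter of 1 FPKM only through MacB1-N, so their differences are descriptions. Cd5 was 1.08, 1.07 and 2.14 FPKM in MacB1-N and 0.375, 0 and 0.0612 in MacA-N. Its log2 difference of 1.07 ± 0.29 (limma, adjusted p = 0.00777) fell under the fold minimum without MacA-N replicate 2 (0.98) or MacB1-N replicate 3 (0.87). Cd6 was 0.0638, 2.60 and 2.12 FPKM in MacB1-N and 0, 0 and 0.232 in MacA-N, so MacB1-N replicate 1 lay inside the MacA-N range. The Cd6 difference (1.09 ± 0.40, limma adjusted p = 0.0417) was not called without MacA-N replicate 1, 2 or 3 (adjusted p = 0.10, 0.102 and 0.0599) nor without MacB1-N replicate 2 or 3 (0.193 and 0.156), and without MacB1-N replicate 1 it was 1.64. With a block on replicate number its adjusted p was 0.0501.

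The NK cell genes include those of cytotoxic granules, Nkg7, Gzma, Gzmb and Prf1. The promoters of Gzma and Nkg7 are printed because they hold the Runx core TGTGGT, which was found in 6 of the 8 NK cell members with a RefSeq promoter (Gzma, Gzmb, Klrb1c, Ncr1, Nkg7 and Prf1) beside 14% of all promoters, and in 1 of 9 T cell and 1 of 5 B cell members. Gzma is shown at chr13:113100982-113101231 (minus strand) and Nkg7 at chr7:43436888-43437072 (plus strand), ending before the annotated exon, with TGTGGT and CAGGTG in capitals on either strand.
Gzma: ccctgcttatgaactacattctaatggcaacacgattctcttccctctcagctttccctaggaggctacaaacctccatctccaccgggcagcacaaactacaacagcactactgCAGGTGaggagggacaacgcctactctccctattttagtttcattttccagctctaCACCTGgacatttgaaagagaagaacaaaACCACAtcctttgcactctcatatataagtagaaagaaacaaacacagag
Nkg7: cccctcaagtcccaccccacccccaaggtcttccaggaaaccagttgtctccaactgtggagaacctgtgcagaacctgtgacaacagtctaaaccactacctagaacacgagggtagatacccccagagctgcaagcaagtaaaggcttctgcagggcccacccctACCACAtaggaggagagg
The Gzma stretch held 1 Runx match and 2 E-boxes, and the Nkg7 stretch 1 Runx match. With these 3, 11 motifs were searched on both strands. The others were a longer Runx form (TGTGGTT, which contains TGTGGT), the longer ETS forms GAGGAAGT as well as AGAGGAA (both containing GAGGAA), the E-box CAGCTG, the kappa B core GGGACTTT and the full kappa B motif that contains it, the TATA box TATAAA and the octamer ATTTGCAT. Members were again counted by gene and all promoters by window. The motifs and sequences shown were picked after their matches had been seen, so the shares are not evidence about a factor.

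Nkg7, a protein of cytotoxic granules, was 4.72, 6.75 and 6.73 FPKM in MacB1-N, 0.357, 3.37 and 0 in MacB2-N and 0.209, 0 and 0.239 in MacA-N. MacB1-N stood above all other naive libraries. Its log2 fold change was 2.61 ± 0.49 against MacA-N (limma, adjusted p = 0.000403) and 1.95 ± 0.49 against MacB2-N (adjusted p = 0.0185). The MacB2-N comparison lost its call without MacB1-N replicate 2 or 3 (adjusted p = 0.0630 and 0.0683) or without MacB2-N replicate 1 or 3 (0.0828 and 0.0677). In MacB2-2wk Nkg7 was 7.05, 7.20 and 4.82 FPKM, above all MacB2-N libraries, with a rise of 2.01 ± 0.49 (limma, adjusted p = 0.0372). The adjusted p of that rise was 0.133 and 0.142 without MacB2-N replicates 1 and 3, 0.0952, 0.0966 and 0.0817 without MacB2-2wk replicates 1, 2 and 3, and 0.0507 with a block on replicate number. MacB3-2wk read 1.63, 0.746 and 1.00 FPKM, below every MacB2-2wk library (-1.80 ± 0.49, limma adjusted p = 0.0239). This too was not called without MacB2-2wk replicate 1 or 2 or MacB3-2wk replicate 2 or 3 (adjusted p = 0.0687, 0.0771, 0.0814 and 0.0718).

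Gzma, the serine protease granzyme A, was 9.94, 6.66 and 18.9 FPKM in MacB1-N, 1.35, 1.2 and 13.2 in MacB2-N and 2.39, 2.46 and 1.98 in MacA-N. MacB2-N replicate 3 lay within the MacB1-N range while its partners lay below MacA-N. The MacB1-N difference from MacA-N (1.86 ± 0.69, limma adjusted p = 0.0467) was lost without MacA-N replicate 1, 2 or 3 (adjusted p = 0.0895, 0.0883 and 0.105), without MacB1-N replicate 1 or 3 (0.0808 and 0.168) and with a replicate block (0.0532). Under tumor Gzma was 7.01, 6.78 and 0.303 FPKM in MacB2-2wk, 2.02, 0.610 and 2.07 in MacB2-3wk, 0.387, 0.563 and 0 in MacB3-2wk and 0, 0 and 0.440 in MacB3-3wk. MacB3 values were thus under 1 FPKM in all 6 libraries. Against MacB1-N the MacB3-2wk difference was -3.20 ± 0.69 (limma, adjusted p = 0.00183), the largest fall of a member in that comparison.

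Gzmb, granzyme B, followed another order, with 5.22, 2.27 and 1.70 FPKM in MacB2-N, 1.87, 2.15 and 0.999 in MacB1-N and 0.660, 0 and 0.942 in MacA-N. MacB2-N was called higher than MacA-N (1.36 ± 0.43, limma adjusted p = 0.0220), but not without MacA-N replicate 2 (0.106) or MacB2-N replicate 1 (0.121). Gzmb was 4.37, 4.77 and 0.476 FPKM in MacB2-2wk and 0.448, 0.319 and 0.843 in MacB2-3wk. It was lower in MacB2-3wk than in MacB2-N (-1.32 ± 0.43, limma adjusted p = 0.0345), except without MacB2-N replicate 1 (0.162) or MacB2-3wk replicate 1 or 2 (0.0877 and 0.0973). Likewise it was lower in MacB3-2wk, at 0.214, 0.441 and 0 FPKM, than in MacB2-2wk (-1.57 ± 0.43, limma adjusted p = 0.0239), a call lost without MacB2-2wk replicate 1 or 2 (0.103 and 0.123) or MacB3-2wk replicate 1 or 3 (0.0593 and 0.0930). Prf1, which encodes the pore-forming perforin, was 0.952, 0.671 and 2.29 FPKM in MacB1-N and 0.324, 0.344 and 0.247 in MacA-N. The MacB1-N libraries were all above MacA-N, yet the difference of 0.76 was under the fold minimum (limma, adjusted p = 0.0465).

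Klrd1, the CD94 chain of NK receptors, had the largest positive difference of MacB1-N from either of the other naive gates among the members. It read 8.11, 9.86 and 21.3 FPKM in MacB1-N and 0 to 6.24 in the other 21 libraries. No other library reached the lowest MacB1-N value. The log2 fold change was 3.40 ± 0.50 against MacA-N (limma, adjusted p = 3.06e-05), 3.17 ± 0.50 against MacB2-N (adjusted p = 0.000401) and -2.56 ± 0.50 for MacB3-2wk against MacB1-N (adjusted p = 0.000812). Klrd1 read 6.24, 1.58 and 2.52 FPKM in MacB2-2wk against 1.02, 0.490 and 0 in MacB2-N. Each of the 3 Klrd1 calls held whichever library was left out.

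The other NK cell members were at the lower end of detection. Tbx21, the transcription factor T-bet, was 0.935, 2.50 and 1.91 FPKM in MacB1-N and 0, 0 and 0.150 in MacA-N (1.37 ± 0.30, limma adjusted p = 0.00189). It passed the filter only through MacB1-N, so this is a description. The related factor Eomes averaged at most 0.656 FPKM in a group, and the activating receptor gene Ncr1 at most 0.915, both in MacB1-N. Klrb1c, which encodes NK1.1, was the exception in its place: it was 2.24, 1.76 and 0.786 FPKM in MacB3-2wk and 0, 0.535 and 0 in MacB1-N. Klrb1c passed the filter only through MacB3-2wk, so the difference (1.13 ± 0.36, limma adjusted p = 0.0238) is a description. This was not called without MacB1-N replicate 1 or 3 (adjusted p = 0.0719 and 0.0773) or MacB3-2wk replicate 1 or 2 (0.0959 and 0.0698), and in MacB3-3wk Klrb1c was 0, 0.451 and 0 FPKM. Klrb1c shares exonic sequence with Gm44511, so its reads may be split.

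Of the receptor chains among the B cell genes, Cd79a was called higher in MacB1-N than in MacB2-N and Cd79b was not. The stretch before Cd79a (chr7:24897247-24897380, plus strand, GRCm38.p6, from RefSeq), printed because Cd79a is the receptor chain on which the B cell results turn, has CAGGTG and GAGGAA in capitals on either strand.
Cd79a: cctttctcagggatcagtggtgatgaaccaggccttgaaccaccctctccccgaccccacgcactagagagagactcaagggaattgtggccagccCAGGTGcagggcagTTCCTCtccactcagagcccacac
It held 1 E-box and 1 ETS match, and CAGGTG was found in 4 of the 5 B cell members with a RefSeq promoter (Cd22, Cd79a, Cr2 and Fcer2a). Cd79a (chromosome 7, 24897381 to 24902197) was 11.3, 6.15 and 6.87 FPKM in MacB1-N, 1.78, 1.42 and 2.43 in MacB2-N and 1.2, 1.63 and 1.73 in MacA-N. MacB1-N stood above both other naive gates, by 1.82 ± 0.29 against MacA-N (limma, adjusted p = 6.86e-05) and 1.64 ± 0.29 against MacB2-N (adjusted p = 0.00113). Cd79a was 2.82, 4.73 and 5.38 FPKM in MacB2-2wk, 0.759, 1.44 and 0.467 in MacB2-3wk, 0.726, 0.570 and 0.895 in MacB3-2wk and 0, 0.334 and 0.590 in MacB3-3wk. All MacB2-2wk libraries were thus above all later MacB2 and all MacB3 libraries. It fell by 1.49 ± 0.29 on the log2 scale from MacB2-2wk to MacB2-3wk (limma, adjusted p = 0.00507) and was lower in MacB3-2wk than in MacB2-2wk (-1.59 ± 0.29, adjusted p = 0.00128). With only the 2 compared groups fitted in limma, the call against MacB2-N and that of the fall were lost (adjusted p = 0.0562 and 0.076).

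Cd79b (chromosome 11, 106311341 to 106314762), the partner chain, did not separate MacB2-N from MacB1-N. It was 5.44, 8.57 and 9.28 FPKM in MacB2-N, 6.61, 5.49 and 4.04 in MacB1-N and 0.506, 0.386 and 1.73 in MacA-N. The 2 MacB gates overlapped and both lay above MacA-N, by 2.27 ± 0.35 for MacB2-N (limma, adjusted p = 4.28e-05) and 1.82 ± 0.35 for MacB1-N (adjusted p = 0.000451). In tumor lungs Cd79b was 6.86, 7.77 and 2.92 FPKM in MacB2-2wk, 0.996, 2.61 and 2.51 in MacB2-3wk, 2.96, 1.46 and 3.39 in MacB3-2wk and 2.72, 2.90 and 2.41 in MacB3-3wk. MacB2-3wk was lower than MacB2-N (-1.55 ± 0.35, limma adjusted p = 0.00307). Its difference from MacB2-2wk, -1.14, was not called (adjusted p = 0.0549).

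Fcer2a, the low-affinity IgE receptor CD23, was 2.65, 2.35 and 3.10 FPKM in MacB1-N, 1.34, 1.39 and 1.13 in MacB2-N and 0.264, 0.528 and 0.336 in MacA-N. The 3 gates did not overlap, and MacB1-N was higher than MacA-N (1.43 ± 0.29, limma adjusted p = 0.000895), though under quantile normalization the difference of 0.97 was below the fold minimum. Pax5, the transcription factor that commits cells to the B lineage, was 3.23, 4.93 and 3.87 FPKM in MacB1-N but was scattered elsewhere, with 20.1 in MacB2-2wk replicate 3, the library of lowest depth, beside 1.32 and 2.65 in that group, and 9.71 in MacA-N replicate 2 beside 0.727 and 2.25. No comparison called Pax5, and opposite-strand genes share its exons. Ms4a1, which encodes CD20, was 1.07, 1.02 and 1.25 FPKM in MacB1-N and averaged 0.341 in MacA-N, with no call. Blk, a B cell kinase, and Cr2, complement receptor 2, averaged at most 0.639 and 0.408 FPKM in a group, again in MacB1-N.

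Cd2, Cd22 and Il7r were the 3 members with the highest group means, each reached in a group other than MacB1-N. Cd2, an adhesion receptor that binds CD48 (chromosome 3, 101275899 to 101287939), was 461, 439 and 410 FPKM in naive MacA and 336, 352 and 221 at 2 weeks. It was 23.7, 20.8 and 54.1 FPKM in MacB1-N, 9.26, 8.14 and 14.3 in MacB2-N and 2.44 to 10.8 in the other 12 libraries. The MacA libraries lay far above all others. Cd2 was lower in MacB1-N than in MacA-N by a log2 change of -3.82 ± 0.37 (limma, adjusted p = 1.49e-07) and in MacB2-N by -5.28 ± 0.37 (adjusted p = 1.73e-09). MacB1-N was above MacB2-N (1.46 ± 0.37, limma adjusted p = 0.0189), except without MacB1-N replicate 3 (adjusted p = 0.12) or MacB2-N replicate 1 or 2 (0.0696 and 0.0965). In MacB3-2wk, at 3.66, 3.20 and 3.68 FPKM, Cd2 was lower than in MacB1-N (-2.78 ± 0.37, adjusted p = 1.53e-05).

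Cd22, a sialic acid-binding inhibitory receptor (chromosome 7, 30865402 to 30880342), was 39.8, 37.4 and 37.7 FPKM in naive MacA and 28.5, 32.9 and 10.3 at 2 weeks. The low value of 10.3 belongs to MacA-2wk replicate 3, the library with the high endothelial sum. In naive MacB cells it was 9.48, 4.49 and 6.71 FPKM in MacB1-N and 1.13, 0.171 and 0.483 in MacB2-N, a difference of 2.30 ± 0.35 (limma, adjusted p = 0.00024). Cd22 was 5.36, 4.68 and 8.05 FPKM in MacB3-2wk and 5.21, 6.58 and 6.69 in MacB3-3wk, against 2.06, 0.777 and 1.63 in MacB2-2wk and 0.970, 1.23 and 1.24 in MacB2-3wk. The CD11c+ gates MacB1 and MacB3 were thus above the CD11c- gate MacB2 in every library. MacB3 was above MacB2 by 1.5 ± 0.35 at 2 weeks (limma, adjusted p = 0.00821) and 1.73 ± 0.35 at 3 weeks (adjusted p = 0.00636). At 2 weeks of tumor Cd22 was thus called higher and Cd79a lower in MacB3 than in MacB2. In naive lung both were called higher in MacB1-N than in MacB2-N. Cd22 shares exonic sequence with the opposite-strand gene Gm29439.

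Il7r, the receptor chain for interleukin 7 (chromosome 15, 9505788 to 9530176), had the largest called change with tumor within a gate among the members. It was 24.7, 32.3 and 28.4 FPKM in MacB3-2wk and 16.5, 24.1 and 23.1 in MacB3-3wk. MacB2 libraries read 0.512, 0.430 and 0.404 FPKM in naive lung, 7.58, 1.92 and 8.63 at 2 weeks and 7.17, 7.16 and 10.9 at 3 weeks. MacA libraries read 0.399, 0 and 0.190 FPKM in naive lung and 3.11, 1.33 and 2.05 at 2 weeks, and MacB1-N 4.60, 7.47 and 8.66. Each tumor group of MacA and MacB2 lay above the naive group of its gate, and all MacB3 libraries lay above all other libraries.

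Il7r rose from MacB2-N to MacB2-2wk by 2.10 ± 0.35 (limma, adjusted p = 0.00223) and to MacB2-3wk by 2.68 ± 0.35 (adjusted p = 2.28e-05). The rise at 2 weeks held whichever library was left out but had an adjusted p of 0.226 when only those 2 groups were fitted. In MacA the difference was 1.38 ± 0.35 and was not called (adjusted p = 0.0764). MacB3-2wk was higher than MacB2-2wk (2.23 ± 0.35, limma adjusted p = 0.00034) and than MacB1-N (1.93 ± 0.35, adjusted p = 0.0004). At 3 weeks MacB3 stood 1.25 ± 0.35 above MacB2 without overlap and without a call (adjusted p = 0.0552).

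**Figure D4:**
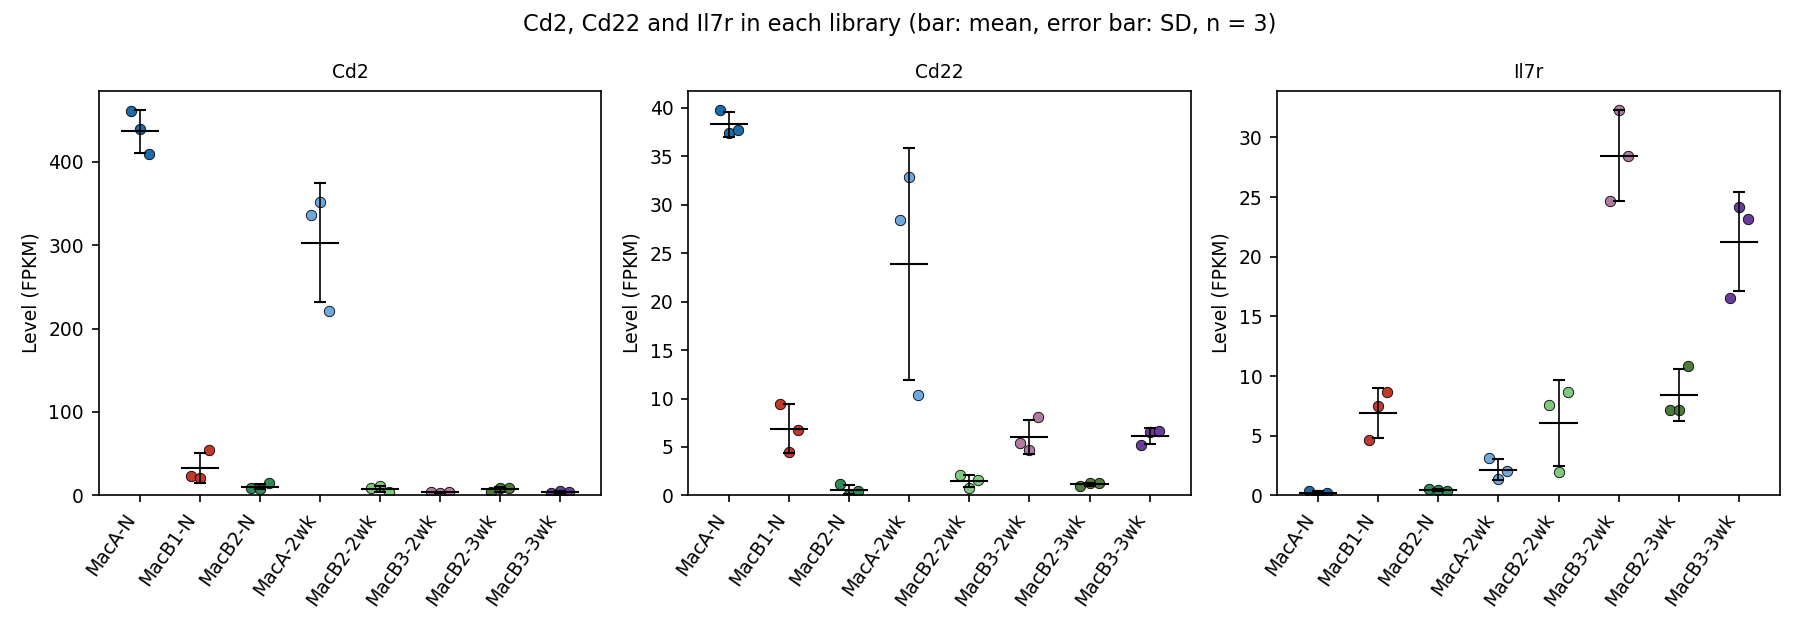
FPKM of Cd2, Cd22 and Il7r in each of the 24 libraries by group; points are libraries, horizontal bars means and error bars the SD (n = 3). Cd2 and Cd22 are highest in MacA-N (461, 439 and 410 FPKM for Cd2), and Il7r is highest in MacB3-2wk and MacB3-3wk, where all 6 libraries lie at 16.5 FPKM or above.

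With tumor, few members were called within a gate. In MacA at 2 weeks 0 of the 26 tested members were called by limma, beside 0.729% higher and 0.0583% lower of all tested genes, and 5 had an unadjusted p under 0.05 (10.8% of all tested genes). Il7r was called higher when MacA-2wk replicate 2 was left out. The Cd2 and Cd22 differences there were -0.55 and -0.81 (adjusted p = 0.629 and 0.393), although the MacA-2wk libraries lay below the MacA-N ones for both. In MacB2, 2 members were called higher at 2 weeks (Il7r and Nkg7) and 0 lower, beside 1.66% and 0.227% of tested genes, with 5 at an unadjusted p under 0.05 (14.8% of all tested). At 3 weeks against naive, 1 was called higher (Il7r) and 2 lower (Gzmb and Cd79b), beside 9.67% and 5.04%. Without MacB2-N replicate 2, Nkg7 was also called higher and Ms4a1 lower, and without MacB2-N replicate 1 or MacB2-3wk replicate 1 or 2 the Gzmb call was lost. The difference between the 2-week responses of MacB2 and MacA was called for 0 members, beside 0.134% higher and 0.0874% lower, with 4 at an unadjusted p under 0.05 in limma (9.86% of all tested), so a call in MacB2 and none in MacA shows no difference between the gates.

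From 2 to 3 weeks in MacB2, Cd79a alone was called lower and 0 members higher, beside 1.28% and 3.06% of tested genes, and 7 had an unadjusted p under 0.05 in limma (21.6% of all tested). Without a filter, 27 of the 32 differences were negative with a median of -0.33, beside a median of 0.00 and 47.6% positive over the genes tested. Negative were 10 of 15 T cell, 9 of 9 NK cell and 8 of 8 B cell genes. The medians over each whole set were -0.16, -0.67 and -0.54. The number called depended on the 2-week group: without MacB2-2wk replicate 3, whose Gzma was 0.303 FPKM beside 7.01 and 6.78, the 3 lower calls were Cd79a, Cd79b and Gzmb, and without MacB2-2wk replicate 1 there were 2. In MacB3 between 2 and 3 weeks 0 members were called, beside 0.28% and 0.035%, and 1, Klrb1c, had an unadjusted p under 0.05 in limma (8.6% of all tested). The week 3 minus week 2 difference between MacB3 and MacB2 was called for 0 members, beside 0% of all tested genes in both directions, with 4 at an unadjusted p under 0.05 (6.53% of all tested).

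MacB3 and MacB2 from tumor lungs were then compared. At 2 weeks 3 of the tested members were called lower in MacB3-2wk (Nkg7, Gzmb and Cd79a) and 2 higher (Il7r and Cd22), beside 4.21% and 3.15% of tested genes. The groups did not overlap for 11 members lower in MacB3-2wk, beside 16.7% of tested genes. Over all 32 members 28 differences were negative with a median of -0.50, beside a median of -0.08 and 40.8% positive over the genes tested. The lower calls depended on single libraries: Cd79a alone was left without MacB2-2wk replicate 2 or MacB3-2wk replicate 3, whereas 8 were called without MacB2-2wk replicate 3 (Cd3d, Cd2, Nkg7, Gzma, Gzmb, Cd79a, Cd79b and Fcer2a). At 3 weeks Cd22 was called higher in MacB3 and 0 members lower, beside 1.61% and 1.03%, with 3 at an unadjusted p under 0.05 in limma (15.5% of all tested).

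The comparison of MacB3-2wk with MacB1-N sets the CD11c+ gate of tumor lung beside that of naive lung, with CD64 high and low cells. Of the tested members 11 were called lower in MacB3-2wk (Cd3e, Cd3d, Cd2, Cd6, Thy1, Nkg7, Gzma, Klrd1, Tbx21, Cd79a and Fcer2a) and 2 higher (Il7r and Klrb1c), beside 13.1% and 8.32% of tested genes. Cd79a had the smallest adjusted p among them (-2.36 ± 0.29, limma adjusted p = 6.3e-06). The groups did not overlap for 18 members lower in MacB3-2wk, beside 25.8%. Among the called members, Cd6 and Tbx21 passed the filter only through MacB1-N and Klrb1c only through MacB3-2wk. Cd8b1, Cd5, Prf1 and Tbx21, among the members without overlap, also passed only through MacB1-N. Both counts are therefore descriptions. Over all 32 members 30 differences were negative, with a median of -0.90, beside a median of -0.11 and 42.0% positive over the genes tested. The call of Thy1 (-1.26, adjusted p = 0.0435) was lost without any 1 of the 6 libraries (adjusted p = 0.0534 to 0.109). The call of Cd6 (-1.16, adjusted p = 0.0342) was lost without MacB1-N replicate 2 or 3 or any MacB3-2wk replicate (0.0652 to 0.165). Tbx21 (-1.04, adjusted p = 0.0144) was not called without MacB1-N replicate 2 (0.0697) or MacB3-2wk replicate 2 (0.0539), and without MacB1-N replicate 3 it was -0.99, under the fold minimum.

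Other lymphocyte genes, from lists of 21 T cell, 15 NK cell and 19 B cell genes, were read beside the members. Over all tested genes, 15% were called higher and 8.71% lower in MacB1-N than in MacA-N. Of the tested list genes, 9 of 17 T cell, 3 of 9 NK cell and 11 of 18 B cell genes were called higher. Trac, Trbc2 and Ighm were among those higher, Trbc1 and Igkc were not, and 0 genes were called lower. Trac, the constant region of the T cell receptor alpha chain, was 9.23, 2.43 and 16.0 FPKM in MacB1-N, 0, 0 and 1.19 in MacB2-N and listed at 0 in all 3 MacA-N libraries (limma, adjusted p = 0.00529 against MacA-N and 0.0424 against MacB2-N). Trbc2, of the beta chain, was 4.83, 1.99 and 7.75 FPKM in MacB1-N and listed at 0 in all 3 MacA-N libraries (adjusted p = 0.0124). Trbc1, the other beta chain constant gene, was 3.31, 0 and 8.78 FPKM in MacB1-N and 0.659, 0.419 and 0 in MacA-N, with overlap and no call (limma, adjusted p = 0.134). Trac and Trbc2 were thus called higher in MacB1-N than in MacA-N, as Cd3e, Cd3d and Cd3g were.

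Ighm, the heavy chain of immunoglobulin M, was above 100 FPKM in both naive MacB gates. It was 174, 126 and 136 FPKM in MacB1-N, 179, 202 and 168 in MacB2-N and 7.75, 6.90 and 9.15 in MacA-N. The 2 MacB gates overlapped, and both were called higher than MacA-N (4.03 ± 0.29 for MacB1-N, limma adjusted p = 3.63e-09, and 4.37 ± 0.29 for MacB2-N, adjusted p = 9.18e-10). In MacB2 it was 124, 118 and 96.7 FPKM at 2 weeks and 38.6, 49.2 and 44.7 at 3 weeks, below every earlier MacB2 library (limma, log2 change of -1.34 ± 0.29 from 2 weeks, adjusted p = 0.00943). MacB3-2wk, at 48.0, 31.8 and 39.3 FPKM, was lower than MacB2-2wk (-1.5 ± 0.29, adjusted p = 0.00221). Igkc, the kappa light chain, was lower there as well (-2.95 ± 0.62, adjusted p = 0.00452), at 14.5, 23 and 5.51 FPKM against 143, 85.4 and 89.3. Between MacB1-N and MacA-N its difference of 1.63 was not called (adjusted p = 0.0527).

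Some genes of the lymphocyte lists were, like Cd22 and Il7r, called higher in MacB3-2wk than in MacB2-2wk. Cd72, a lectin-like coreceptor of B cells, was 447, 385 and 614 FPKM in MacB3-2wk against 14.5, 16.6 and 35.9 in MacB2-2wk. Blnk, the adaptor of B cell receptor signaling, was 39.1, 33.5 and 33.4 FPKM against 3.28, 3.63 and 3.40. MacB3-2wk was higher for both, by 4.46 ± 0.54 (limma, adjusted p = 2.38e-05) and 3.03 ± 0.27 (adjusted p = 5.85e-07), and MacB3-3wk was called higher than MacB2-3wk for both too. Cd4, a coreceptor of T helper cells, was 5.67, 3.80 and 5.39 FPKM in MacB3-2wk and 1.52, 1.23 and 0.777 in MacB2-2wk (1.45 ± 0.31, limma adjusted p = 0.00457). Ccl5, a chemokine of T and NK cells and of activated myeloid cells, rose in MacB2 from a mean of 23.3 FPKM in naive lung to 112 at 2 weeks (limma, adjusted p = 0.000486).

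Genes of some other lung cells were also called in these comparisons. Shares over all tested genes were 15% higher and 8.71% lower for MacB1-N against MacA-N. For MacB1-N against MacB2-N 3.5% were called higher, and 21.2% had an unadjusted p under 0.05 in limma. For MacB3-2wk 13.1% were lower and 8.32% higher against MacB1-N, and 4.21% were lower against MacB2-2wk. From MacB2-N to MacB2-3wk 5.04% were lower and 9.67% higher. Against MacA-N, MacB1-N was called higher for 10 of 11 tested dendritic cell genes (13 listed, summed level 884 to 1099 FPKM against 30.6 to 35.9), 12 of 12 endothelial genes (567 to 719 against 91.0 to 164) and 10 of 12 fibroblast genes (145 to 187 against 19.8 to 37.0). It was called higher for 2 of 3 tested basophil and mast cell genes (8 listed, 27.1 to 41.2 FPKM against 4.29 to 7.79). These were Kit and Gata2, with means of 12.99 and 19.1 FPKM in MacB1-N. The other listed genes averaged at most 0.333 FPKM there (Cma1), and Mcpt8 and Fcer1a were listed at 0. Cpa3 and Ms4a2 averaged 0.0668 and 0.0745 FPKM in MacB1-N against 0.766 and 0.497 in MacB2-N, whereas the means of Cma1 and Cd200r3 were higher in MacB1-N. Of 11 epithelial genes 2 were higher and 3 lower (3716 to 13046 against 1168 to 5921), and of 8 tested neutrophil genes 2 were higher and 1 lower (93.7 to 202.7 against 77.2 to 161.9, overlapping). Against MacB2-N it was called higher for 5 of 11 dendritic cell genes (72.3 to 84.7 FPKM in MacB2-N), while limma called 0 of 12 endothelial and 0 of 12 fibroblast genes, with 6 and 9 at an unadjusted p under 0.05. Without MacB2-N replicate 3, which had the high endothelial sum, 6 endothelial and 3 fibroblast genes were called higher in MacB1-N. MacB3-2wk was called lower than MacB1-N for 12 of 12 endothelial genes (103 to 129 FPKM), 8 of 11 dendritic cell genes (49.4 to 123) and 6 of 12 fibroblast genes (48.4 to 74.9). Against MacB2-2wk it was called lower for 6 of 12 endothelial genes (226 to 689 FPKM in MacB2-2wk), 3 of 11 dendritic cell and 3 of 12 fibroblast genes. Without MacB2-2wk replicate 2, the library at 689, these were 0, 2 and 0, and without replicate 3 of that group they were 5, 2 and 1. From MacB2-N to MacB2-3wk, 4 endothelial genes fell and 7 fibroblast genes rose, the latter to summed levels of 586 to 1042 FPKM; without MacB2-N replicate 3 these were 0 and 8. These fits without single libraries were chosen after seeing the data. Macrophage genes went the other way, with 6 of 9 called lower and 2 higher in MacB1-N than in MacA-N, and 6 of 9 called higher in MacB3-2wk than in MacB1-N. Of the endothelial, fibroblast and dendritic cell genes, none was at 0 in every library. The part of these cells in the lymphocyte values was not tested.

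**Figure D5:**
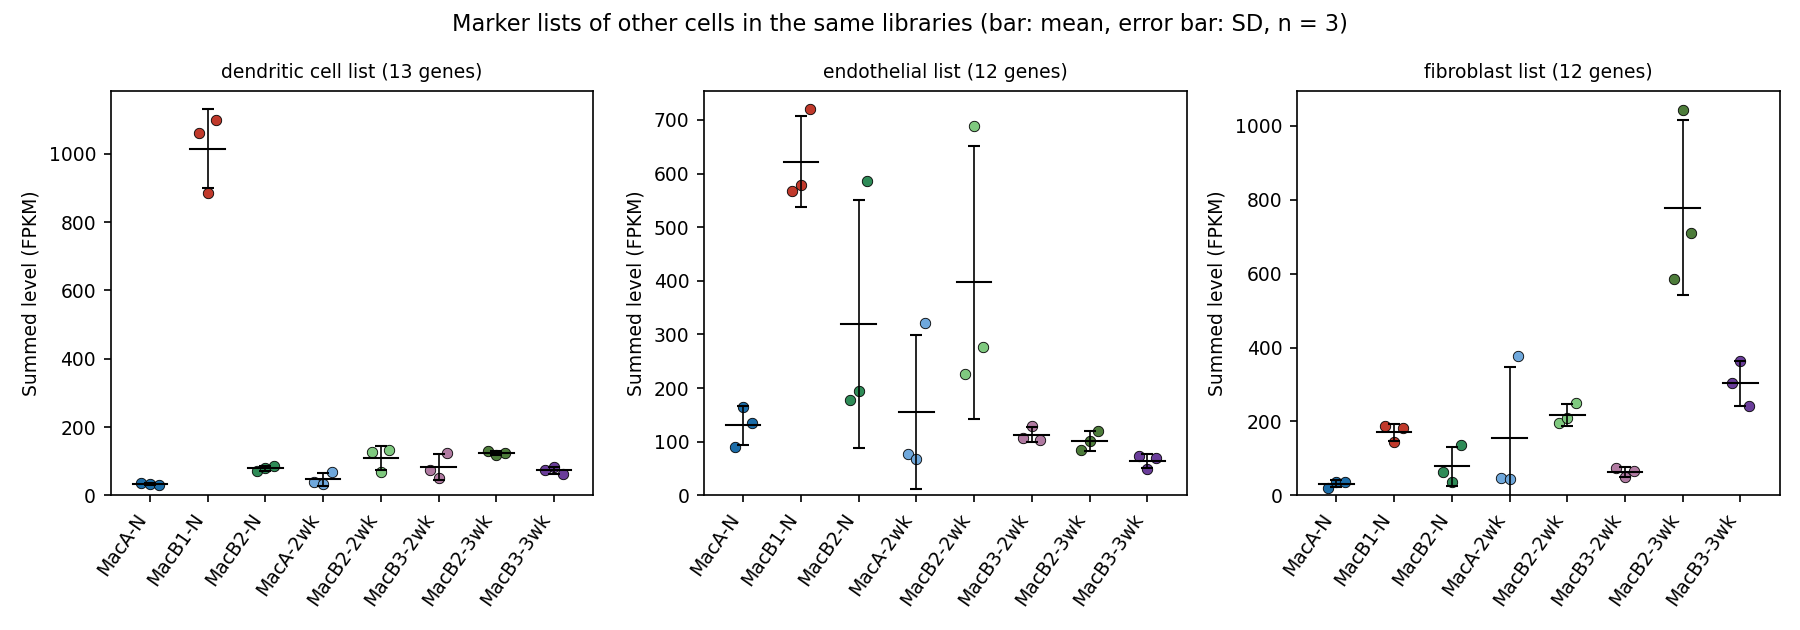
Summed FPKM of 13 dendritic cell, 12 endothelial and 12 fibroblast genes in each of the 24 libraries; points are libraries, horizontal bars means and error bars the SD (n = 3), drawn from 0 up. The dendritic cell sum is 884 to 1099 in MacB1-N and at most 133 elsewhere, the endothelial sum is high in MacB1-N, in MacB2-N replicate 3 (587) and in MacB2-2wk replicate 2 (689), and the fibroblast sum is highest in MacB2-3wk.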

How the data were processed

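The data were 24 RNA sequencing libraries from mouse lung cells sorted by flow cytometry and made with the NuGen Ovation FFPE kit. The deposited table holds FPKM; per the submitters' processing notes the authors used FastQC, TopHat2 version 2, mm10 and Cufflinks 2.0.2. Its header names no unit, so FPKM is taken from those notes, and annotation and strand use are not given in the sources used here. Of its per-sample columns 0 were unmapped. Positions are from GENCODE M21 by Ensembl identifier, because table loci overlap it for 2 of 32 members.

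From these values log2(FPKM + 1) was computed. The 17156 genes whose mean reached 1 FPKM in some group were fitted in limma 3.58.1 (R 4.3.3) over all 24 libraries (group means as coefficients, 16 residual degrees of freedom, trend in mean level), with Benjamini-Hochberg adjustment within each comparison. The script was tested on simulated data for MacB1-N against MacB2-N. Of genes changed by 1.2 on the log2 scale 44 of 100 were called, and of those changed by 2, 70 of 100. Only genes with a mean log2(FPKM + 1) above 1 in MacB2-N were changed, so these rates do not describe members below that level. There were 10 false calls, and a gene that was not called may still differ. Any member could be named, and of the other lymphocyte genes at most the 6 with the smallest adjusted p per comparison and the antigen receptor constant genes. Members and lists were chosen with earlier results of these data known.

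Replicate numbers mark run lanes in the MacB groups. Deviations of same-numbered MacB libraries from their group means correlated with a median of 0.00119 (-0.0726 to 0.210, 45 pairs) and other numbers with -0.00226. A block on the number was an alternative, as were other pseudocounts, filters, scalings, fits of the compared groups only and leaving out each library. FPKM gives no absolute depth, so no counting intervals are given. Where libraries come from pools, p-values measure the spread between pools.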

Additional observations from a re-analysis of the deposited data

How the results depend on the processing

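Of 52 calls of members, 31 were kept in every setting, 21 were lost in at least 1 and 0 reversed direction. Counts of calls that moved were as follows. For MacB1-N against MacA-N, 14 higher calls became 9 with a filter of 5 FPKM. For MacB1-N against MacB2-N, 6 became 3 when only the compared groups were fitted. For MacA-2wk against MacA-N, 0 became 1 (Il7r) with a pseudocount of 0.1. For MacB2-2wk against MacB2-N, 2 higher became 1 (Il7r) with a pseudocount of 0.1, no filter, quantile normalization or the replicate block, and 0 with only the compared groups. For MacB2-3wk against MacB2-N, 2 lower became 1 (Cd79b) with a pseudocount of 0.1, the 5 FPKM filter or only the compared groups. For MacB2-3wk against MacB2-2wk, 1 lower became 2 under quantile normalization and 0 with only the compared groups. For MacB3-3wk against MacB2-3wk, 1 higher became 2 (Il7r and Cd22) with the 5 FPKM filter or only the compared groups. For MacB3-2wk against MacB1-N, 2 higher became 1 with a pseudocount of 0.1, the 5 FPKM filter or only the compared groups, and 11 lower became 7 with the filter. A filter tests fewer members and a fit of only the compared groups has fewer libraries; for the other changes the cause was not tested. Leaving out each library in turn gave 9 to 13 higher calls for MacB1-N against MacA-N (9 without MacA-N replicate 2), 2 to 3 for MacB2-N against MacA-N, 4 to 9 for MacB1-N against MacB2-N (9 without MacB2-N replicate 3), 0 to 1 for MacA-2wk against MacA-N (1 without MacA-2wk replicate 2, Il7r), 1 to 2 for MacB2-2wk against MacB2-N, 1 to 2 higher (2 without MacB2-N replicate 2) and 1 to 3 lower for MacB2-3wk against MacB2-N, 1 to 3 lower for MacB2-3wk against MacB2-2wk, 2 to 3 higher and 1 to 8 lower for MacB3-2wk against MacB2-2wk, and 1 to 2 higher and 8 to 12 lower for MacB3-2wk against MacB1-N. The block on replicate number ended the calls of Cd6 and Gzma for MacB1-N against MacA-N, leaving 12 higher, and of Nkg7 for MacB2-2wk against MacB2-N, and changed no other call of a member. Quantile normalization moved the median of all tested genes from 0.12 to -0.03 for MacB1-N against MacA-N (2572 higher and 1495 lower calls became 1930 and 2161), from 0.09 to -0.02 for MacB1-N against MacB2-N (601 and 292 became 423 and 422) and from -0.11 to 0.01 for MacB3-2wk against MacB1-N (1427 and 2254 became 1839 and 1711). For MacB3-2wk against MacB2-2wk it turned 541 and 722 calls into 676 and 527, and for MacB2-3wk against MacB2-N 1659 and 865 into 1374 and 1234. FPKM gives no counting error, so none is given for members near 1 FPKM.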
